A study of Mus musculus with 4 samples.

Results

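The genes described here are 9 genes that type I interferon switches on in mouse cells: Isg15, Ifit1, Ifit2, Ifit3, Oas2, Oasl2, Rsad2, Irf7 and Usp18. They were chosen by gene symbol in the deposited comparison table, where each has 1 probe set, so they make up 9 of the 32202 probe sets that carry a symbol. Each array, a GeneChip Mouse Gene 2.0 ST, had received total RNA from Balb/c mouse colon, and its probe sets combine probes spread along a transcript. Control 1 and control 2 came from mice given plain water to drink, while the mice behind maltodextrin 3 and maltodextrin 4 drank water with 5% maltodextrin, a starch-derived food additive, for 45 days. The labels name no genetic change in either group and do not say whether the arrays of a group came from separate mice or pools, so the p-values rest on array-to-array spread, which may be technical.

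Type I interferons are secreted proteins made when a cell senses viral or microbial nucleic acid. They bind the receptor formed by Ifnar1 and Ifnar2, and the kinases Jak1 and Tyk2 then activate transcription factors, among them Stat2, which join Irf9 on a short DNA element in front of the target genes. In the gut these targets are known for restricting enteric viruses, and they are kept at a low tonic level by signals from resident microbes. Interferon lambda, which acts mainly on the intestinal epithelium, uses the same factor, so the 9 genes do not separate type I from lambda interferon.

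The arrays differed in tissue content. Control 2 carried pancreatic transcripts, with a mean log2 intensity over 13 acinar genes of 8.80 against 5.13 to 5.52 on the other arrays. Maltodextrin 3 lacked the signal of the homeobox genes of the distal colon: Hoxd13 was 3.97 there against 8.65 to 10.01 elsewhere, and Hoxb13 was 3.78 against 8.18 to 9.43. Of 15 colon epithelium markers 5 lay below both controls, where 24.7% of all probe sets did, and 1 above, where 25.6% did, with Epcam between 11.67 and 11.75. Macrophage and dendritic cell markers were above both controls on both maltodextrin arrays for 13 of 15 genes (25.6% of all probe sets), with list means of 6.96 and 6.74 in control and 7.58 and 7.89 in maltodextrin. Their part in the results was not tested. In tissue RNA, fewer cells of a type and less RNA per cell cannot be told apart.

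The short element named above can be seen in the promoters. It was searched on both strands as GAAANNGAAA (TTTCNNTTTC on the other strand) in RefSeq windows of 300 bases, from 250 before to 50 after each transcript start (GRCm38.p6). Windows were at hand for 7 of the 9 genes, all but Oas2 and Usp18, and 4 of these 7 held a match: Isg15, Ifit1, Ifit3 and Rsad2. Over all genes with a window the share was 3.99% (1079 of 27025). It was 52.0% (26 of 50) in a wider list of type I interferon stimulated genes and 90.0% (9 of 10) among the GTPases that interferon gamma induces. The 4 windows are printed because they set Isg15 and Ifit3, whose maltodextrin arrays lay below both controls, beside Ifit1 and Rsad2, whose groups overlapped. They are written 5′ to 3′ on the strand of the gene, and capitals mark the matched bases.
Isg15: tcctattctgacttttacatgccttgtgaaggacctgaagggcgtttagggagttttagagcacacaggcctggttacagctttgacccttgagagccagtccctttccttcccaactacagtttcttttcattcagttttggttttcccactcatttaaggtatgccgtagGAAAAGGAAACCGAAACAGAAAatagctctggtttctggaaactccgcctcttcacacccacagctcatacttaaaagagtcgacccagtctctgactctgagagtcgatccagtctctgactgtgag
Ifit3: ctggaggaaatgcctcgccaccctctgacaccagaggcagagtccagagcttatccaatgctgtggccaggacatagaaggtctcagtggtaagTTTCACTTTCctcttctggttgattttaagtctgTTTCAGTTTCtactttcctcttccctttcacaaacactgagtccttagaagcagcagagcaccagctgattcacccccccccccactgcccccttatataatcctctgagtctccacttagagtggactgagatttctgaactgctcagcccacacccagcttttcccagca
Ifit1: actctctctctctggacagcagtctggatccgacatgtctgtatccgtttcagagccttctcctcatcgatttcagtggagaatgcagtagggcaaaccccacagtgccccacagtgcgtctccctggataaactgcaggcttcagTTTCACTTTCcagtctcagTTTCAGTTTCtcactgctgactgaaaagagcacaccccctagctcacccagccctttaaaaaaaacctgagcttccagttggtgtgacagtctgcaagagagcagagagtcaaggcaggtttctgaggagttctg
Rsad2: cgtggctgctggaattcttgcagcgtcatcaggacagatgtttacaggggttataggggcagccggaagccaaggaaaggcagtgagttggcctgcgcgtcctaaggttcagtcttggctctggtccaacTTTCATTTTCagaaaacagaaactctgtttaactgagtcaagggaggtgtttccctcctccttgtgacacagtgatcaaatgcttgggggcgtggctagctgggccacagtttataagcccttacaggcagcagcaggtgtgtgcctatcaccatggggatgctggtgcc
The Isg15 window (chr4:156200769-156201068, minus strand) held 3 matches that overlap in a run of 22 bases, the first of them starting 78 bases before the transcript start. The Ifit3 window (chr19:34583279-34583578, plus strand) and the Ifit1 window (chr19:34640639-34640938, plus strand) each held the same pair of words, TTTCACTTTC and TTTCAGTTTC, starting 156 and 122 bases before the start in Ifit3 and 104 and 85 bases before it in Ifit1. The Rsad2 window (chr12:26456403-26456702, minus strand) held 1 match, 120 bases before the start. Having the word did not go with a common behaviour on the arrays: among these 4 genes the differences between groups ran from -1.33 to 0.24. The windows of Ifit2, Oasl2 and Irf7 held no match, which says only that these letters are not in them.

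The interferon genes did not move together with maltodextrin. Isg15 was lower on both maltodextrin arrays, Ifit3 was lower by a smaller amount, and for the other 7 genes the maltodextrin arrays overlapped the controls. Differences ran from -1.33 for Isg15 to 0.72 for Usp18 on the log2 scale, with 6 of 9 below 0 and a median of -0.29, against -0.04 over all named probe sets. By limma no member passed an adjusted p of 0.05, as was true of all 32202 probe sets (0.0%), of which 4698 (14.6%) had an unadjusted p under 0.05. A nominal criterion, the one behind the authors' own list, requires an unadjusted p under 0.05 together with a 1.5-fold change or more. It was met by 1 member in the lower direction, where 3.56% of all probe sets met it, and by 0 in the higher direction, where 8.51% did. With the fold raised to 2 the lower count was still 1, where 1.36% of all probe sets passed. With 2 arrays a group an exact permutation test cannot go below a two-sided p of 0.333, so none was made.

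**Figure D1:**
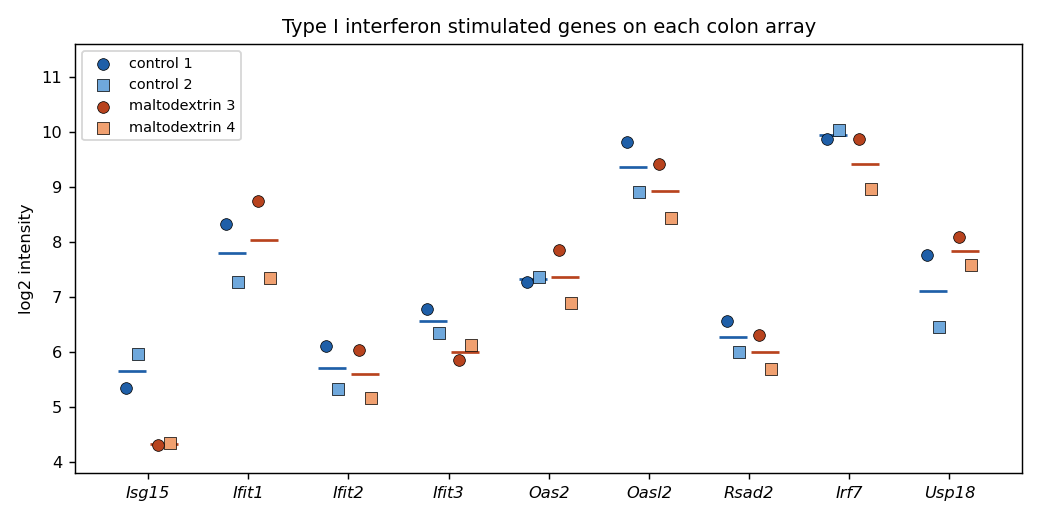
Log2 intensity (vertical axis) of the 9 interferon stimulated genes on each of the 4 colon arrays, with horizontal bars at the group means. The maltodextrin points of Isg15 lie at 4.30 and 4.34, below the controls at 5.34 and 5.96, while those of Ifit1, Oas2 and Oasl2 overlap the control values.

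Isg15 encodes a ubiquitin-like protein that is joined to other proteins after interferon exposure and can also be secreted. It lies on chromosome 4 from 156199424 to 156200818 (GRCm38.p6). Its log2 intensity was 5.34 on control 1, 5.96 on control 2, 4.30 on maltodextrin 3 and 4.34 on maltodextrin 4. The maltodextrin values were nearly equal and both lay below the lower control. The group means were 5.65 ± 0.43 (SD, n = 2) and 4.32 ± 0.03 (SD, n = 2), a difference of -1.33 (SE 0.26) or 2.51-fold as measured, with limma unadjusted p = 0.00484 and adjusted p = 0.246. In the authors' deposited table the unadjusted p was 0.0496 and the step-up p 0.468. The signal was low: olfactory, vomeronasal and trace amine receptors, taken here as a guide to background, had a 95th percentile of 5.69 on control 1, 5.05 on control 2, 4.89 on maltodextrin 3 and 4.83 on maltodextrin 4. Isg15 exceeded that level on control 2 alone, the array with pancreatic transcripts, and its difference was -1.02 without control 2.

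Genes of the Isg15 conjugation system gave no shared direction. Usp18, the protease that removes Isg15 from proteins and also blocks signalling at the Ifnar2 chain, was 7.77 on control 1, 6.45 on control 2, 8.09 on maltodextrin 3 and 7.58 on maltodextrin 4. It was low on control 2 alone, and maltodextrin 4 lay between the controls. Its difference was 0.72 (SE 0.49, limma adjusted p = 0.526), opposite in sign to that of Isg15, with a 95% interval from -0.58 to 2.02. It was 0.06 without control 2 and 1.38 without control 1. Of 4 measured conjugation genes, 1 lay below both controls (24.7% of all probe sets) and 0 above (25.6% of all). At the nominal criterion 0 passed, where 3.56% of all probe sets were lower and 8.51% higher. The 4 genes were the activating enzyme Uba7 at -0.32 (SE 0.31), the conjugating enzyme Ube2l6 at 0.32 (SE 0.31), and the ligases Herc6 at -0.48 (SE 0.32) and Trim25 at -0.23 (SE 0.18).

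The Ifit genes encode proteins with tetratricopeptide repeats that bind viral RNA or block translation, and they lie next to each other on chromosome 19. Ifit3 (34583119 to 34588982) was 6.78 on control 1, 6.35 on control 2, 5.86 on maltodextrin 3 and 6.12 on maltodextrin 4. Both maltodextrin arrays were below both controls, but the gap between maltodextrin 4 and control 2 was small beside the spread within the groups. The difference was -0.58 (SE 0.24, limma adjusted p = 0.362), or 1.49-fold, and with a limma unadjusted p of 0.0621 it missed both parts of the nominal criterion. The Ifit3 probe set is the only one of the 9 that the file marks as matching several places. Its close copy Ifit3b lies on the same chromosome from 34607530 to 34613403 and has no probe set of its own under that name here, so the value cannot be assigned to Ifit3 alone.

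Ifit1 and Ifit2 showed spread within the groups rather than between them. Ifit1 (34640889 to 34650009) was 8.32 on control 1, 7.27 on control 2, 8.74 on maltodextrin 3 and 7.34 on maltodextrin 4. Ifit2 (34550550 to 34576534) was 6.10 on control 1, 5.32 on control 2, 6.04 on maltodextrin 3 and 5.16 on maltodextrin 4. For both genes control 1 and maltodextrin 3 were high and control 2 and maltodextrin 4 low, with gaps inside a group of 0.78 to 1.39. The differences between groups were 0.24 (SE 0.60, 95% interval -1.33 to 1.82) for Ifit1 and -0.11 (SE 0.42, 95% interval -1.22 to 1.0) for Ifit2, and the intervals cover changes of about 2-fold in either direction. The neighbour Ifit1bl1 (Gm14446 in the file), whose annotated span from 34592888 to 34662981 takes in Ifit1, met the nominal criterion: it was 10.43 and 10.06 in control and 9.34 and 9.28 in maltodextrin, a difference of -0.94 (SE 0.21, limma adjusted p = 0.251).

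The oligoadenylate synthetase family senses double-stranded RNA. Oas2 makes the short adenylate chains that switch on RNase L, and Oasl2 is a related family member. Oas2 (chromosome 5, 120730333 to 120749886) was 7.27 on control 1, 7.36 on control 2, 7.86 on maltodextrin 3 and 6.89 on maltodextrin 4. Oasl2 (chromosome 5, 114896926 to 114912245) was 9.81 on control 1, 8.91 on control 2, 9.42 on maltodextrin 3 and 8.44 on maltodextrin 4. The maltodextrin arrays of Oas2 enclosed both controls, and those of Oasl2 interleaved with them. The difference was 0.06 (SE 0.36, 95% interval -0.89 to 1.01) for Oas2 and -0.43 (SE 0.47, 95% interval -1.67 to 0.80) for Oasl2.

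Rsad2, or viperin, is an enzyme of the endoplasmic reticulum and lipid droplets that makes a chain-terminating nucleotide. It was 6.57 on control 1, 5.99 on control 2, 6.30 on maltodextrin 3 and 5.69 on maltodextrin 4 (chromosome 12, 26442743 to 26456452). Irf7, the transcription factor that amplifies type I interferon production, was 9.88 on control 1, 10.03 on control 2, 9.88 on maltodextrin 3 and 8.97 on maltodextrin 4 (chromosome 7, 141263183 to 141266499). The groups of Rsad2 interleaved, and Irf7 was low on maltodextrin 4 alone. Their differences were -0.29 (SE 0.32, limma adjusted p = 0.691) and -0.53 (SE 0.35, limma adjusted p = 0.512). The Irf7 difference was -0.07 without maltodextrin 4 and -0.99 without maltodextrin 3.

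**Figure D2:**
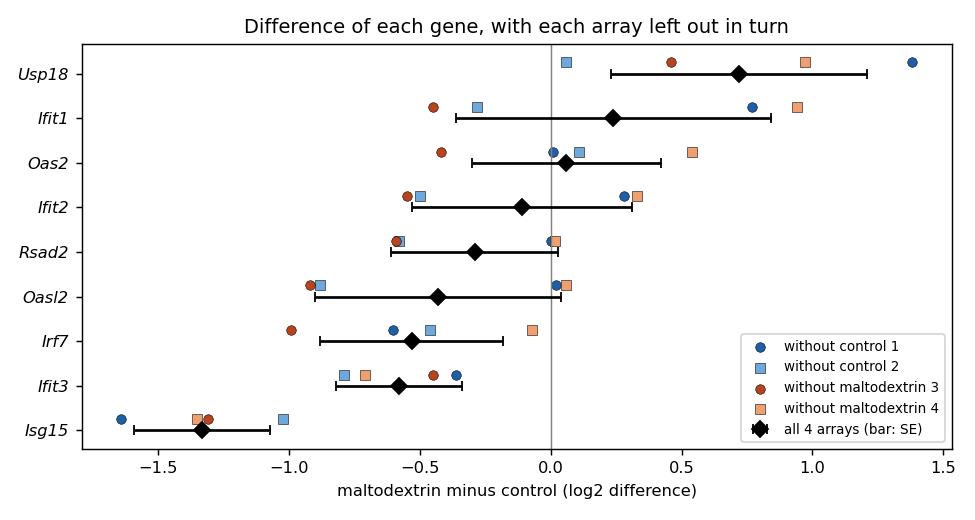
Maltodextrin minus control on the log2 scale (horizontal axis) for each gene from all 4 arrays (black diamonds, bars show the SE of the limma fit) and with each array left out (coloured points). Isg15 stays between -1.64 and -1.02 and Ifit3 between -0.79 and -0.36, whereas Ifit1 runs from -0.45 to 0.94 and crosses 0. Both maltodextrin arrays of Isg15 and Ifit3 lie below both controls, so leaving out an array could not change their sign.

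For most of the members, as for most probe sets, the arrays of a group differed from each other by more than the groups did. The larger of both within-group gaps exceeded the difference of the group means for 7 of the 9 genes, all but Isg15 and Ifit3, where 65.0% of all probe sets did the same. Both maltodextrin arrays lay below both controls for 2 of 9 genes (24.7% of all probe sets) and above them for 0 of 9 (25.6% of all). The median absolute gap between the controls was 0.61 for the members against 0.32 over all named probe sets, and between the maltodextrin arrays 0.88 against 0.17.

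The gaps ran the same way in 5 of the 9 genes. In these, Ifit1, Ifit2, Oasl2, Rsad2 and Usp18, control 1 was above control 2 and maltodextrin 3 above maltodextrin 4, which held for 27.8% of all probe sets. In Isg15 both gaps ran the other way, and in Ifit3, Oas2 and Irf7 the gaps differed in sign. The 5 genes were picked out after their values were seen. Maltodextrin 4 was the lowest array for 5 of the 9 genes (20.5% of all probe sets), and control 1 the highest for 4 of 9 (33.0% of all). Centred on its own mean, the average of the 9 genes was 0.36 on control 1, -0.11 on control 2, 0.21 on maltodextrin 3 and -0.46 on maltodextrin 4. Rsad2 followed this average most closely, with a root mean square distance of 0.048, and Isg15 least, with 0.706. Each of the 9 genes is itself part of the average it was compared with.

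The 8 genes nearest to that average profile, among 10939 probe sets with a mean log2 of at least 6, were Des, Hspb6, Prss30, Clcn2, Sult2b1, Trim15, Oasl1 and Cnn1, at distances of 0.054 to 0.102. Oasl1, another oligoadenylate synthetase-like gene, was 8.81 on control 1, 8.59 on control 2, 8.69 on maltodextrin 3 and 8.03 on maltodextrin 4. Des and Cnn1 encode desmin and calponin of smooth muscle, and 8 of 8 smooth muscle markers were lowest on maltodextrin 4. The smooth muscle list means were 11.14 and 11.50 in control and 11.01 and 10.55 in maltodextrin. Likeness over 4 arrays is a description only.

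A wider list of type I interferon stimulated genes held members on either side. Of 62 genes listed 58 were measured, and their median difference was -0.09, with a range from -1.01 to 1.30. Of these, 15 lay below both controls (24.7% of all probe sets) and 9 above (25.6% of all), 3 met the nominal criterion in the lower direction (3.56% of all) and 3 in the higher (8.51% of all), and 0 had an adjusted p under 0.05. Its median ran from -0.22 to 0.04 with an array left out, the latter without control 1. The lower ones were Ifit1bl1, Parp14, an ADP-ribosyltransferase, at -0.90 (SE 0.17), and Ifi27l2a at -0.97 (SE 0.26). Parp14 was even within the groups, at 9.36 and 9.29 in control and 8.43 and 8.41 in maltodextrin. The higher ones were Ifi205 at 1.30 (SE 0.44), Ifi204 at 0.71 (SE 0.24), both of the family of interferon-inducible DNA-binding proteins, and the exonuclease Isg20 at 0.85 (SE 0.23). Ifi204 was 5.10 on control 1 and 4.57 on control 2, under the receptor 95th percentiles of 5.69 and 5.05 there. Parp14, Ifi204 and Isg20 are named after their values were seen. Oas3, a further synthetase, was 8.15 and 7.55 in control and 7.47 and 6.23 in maltodextrin, a difference of -1.01 (SE 0.48) that did not meet the criterion.

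Of 21 interferon ligand genes 12 had a mean below 5.03, the receptor 95th percentile of mean log2 intensity, where 14574 of all 32202 probe sets did. The others reached group means of 7.54 in control and 7.35 in maltodextrin for Ifna1 and of 7.19 and 7.28 for Ifnl2. The probe sets of Ifna1 and Ifnl2 match several places, so these values cannot be assigned to those genes alone. Ifnb1, the fibroblast interferon, was 3.45 and 3.49 in control and 3.59 and 3.62 in maltodextrin. At the nominal criterion 2 were lower (3.56% of all probe sets) and 0 higher (8.51% of all). The lower ones were Ifnz at -1.58 (SE 0.22), whose probe set also matches several places, and Ifna2 at -0.61 (SE 0.17) from a control mean of 3.90. Many Ifna genes are near-identical copies, so their probe sets may share RNA. Ifne, the epithelial type I interferon, was 4.29 and 4.18 in control and 3.69 and 3.78 in maltodextrin, and Ifnl3 was 5.55 and 5.74 in control and 6.17 and 5.86 in maltodextrin. Neither met the criterion.

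The receptor and signalling genes were well measured and showed 0 of 12 at the nominal criterion. Of all probe sets 3.56% met it in the lower direction and 8.51% in the higher. The receptor chains were slightly higher on both maltodextrin arrays, by 0.33 (SE 0.17, limma adjusted p = 0.421) for Ifnar1 and 0.66 (SE 0.25, limma adjusted p = 0.344) for Ifnar2. Stat2 differed by -0.31 (SE 0.24) and Irf9 by -0.11 (SE 0.19). Of 7 feedback inhibitors besides Usp18, 0 met the criterion, 3 lay above both controls (25.6% of all probe sets) and 1 below (24.7% of all). Those above were Pias1 at 0.68, Ptpn2 at 0.52 and Ptpn11 at 0.15, and the phosphatase Ptpn6 lay below at -0.50. The cytokine signalling suppressors Socs1 and Socs3 overlapped, at 0.01 and -0.08.

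Among 20 genes of nucleic acid sensing, 2 were higher at the nominal criterion, where 8.51% of all probe sets were, and 0 lower, where 3.56% were. Tlr7, the endosomal receptor for single-stranded RNA, was 5.25 and 5.04 in control and 6.72 and 6.83 in maltodextrin, a difference of 1.64 (SE 0.18, limma adjusted p = 0.210). Both Tlr7 control values lay under the receptor 95th percentile of their array, 5.69 on control 1 and 5.05 on control 2. Tlr3, the receptor for double-stranded RNA, was 9.84 and 8.46 in control and 10.62 and 10.34 in maltodextrin, a difference of 1.33 (SE 0.49, limma adjusted p = 0.338). Tlr7 is also a gene of macrophages and plasmacytoid dendritic cells, and the macrophage marker Emr1 was 6.50 and 5.47 in control and 7.97 and 8.39 in maltodextrin. Of 10 markers of plasmacytoid dendritic cells, the main producers of type I interferon in blood, 2 lay above both controls (25.6% of all probe sets) and 2 below (24.7% of all), and the defining Siglech was at 4.76 and 4.25 in control and 5.04 and 5.18 in maltodextrin. The Siglech mean lay below 5.03, the receptor 95th percentile of mean log2 intensity. The part of macrophages and plasmacytoid dendritic cells in the Tlr7 result was not tested.

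**Figure D3:**
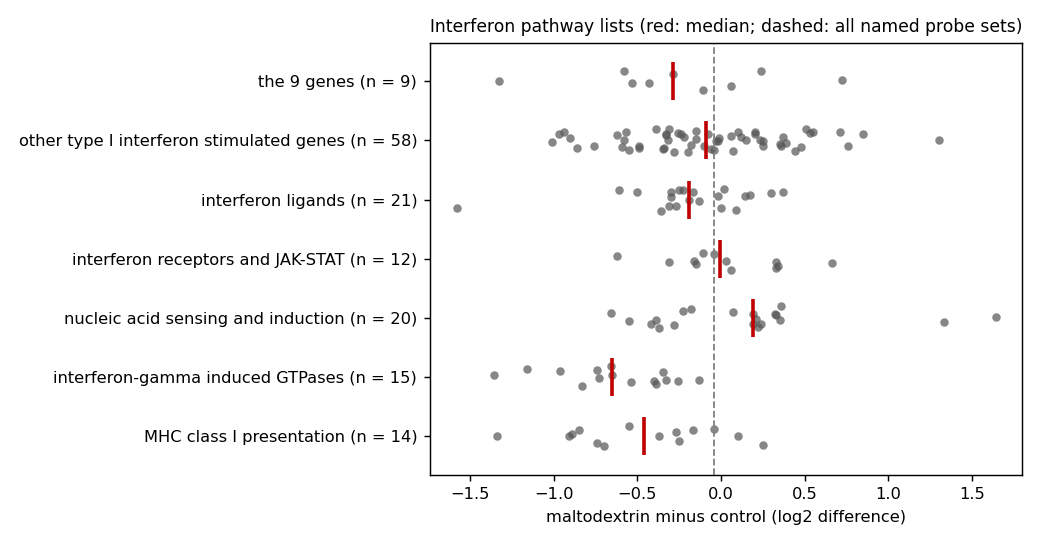
Maltodextrin minus control on the log2 scale (horizontal axis) for every measured gene of the interferon lists, with a red bar at each list's median and a dashed line at -0.04, the median of all named probe sets. The 9 genes have a median of -0.29 and the wider list of 58 genes one of -0.09, and both spread to either side of 0.

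The closest comparison is with the GTPases that interferon gamma induces, which act against intracellular microbes. These were set apart by control 1: it was the highest array for 14 of 15 genes, with list means of 8.13 on control 1 and 6.39, 6.54 and 6.72 on control 2, maltodextrin 3 and maltodextrin 4. Igtp, for example, was 9.44 on control 1 and 6.92, 7.09 and 6.95 on the others. The list's median difference of -0.65 became 0.21 without control 1, whereas the median of the 9 type I genes went from -0.29 to 0.01. The median gap of control 1 over control 2 was 1.76 for the GTPases and 0.58 for the 9 genes. Whether the lists differ in this was not tested. Iigp1, which had the largest difference of the list at -1.36 (SE 1.07), was 10.01 on control 1, 6.86 on control 2, 6.71 on maltodextrin 3 and 7.45 on maltodextrin 4, and a single array carried that difference.

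MHC class I presentation genes, which both kinds of interferon raise, had 7 of 14 members below both controls (24.7% of all probe sets), 1 above (25.6% of all), and a median of -0.46 (-0.07 without control 1). Psmb8, an immunoproteasome subunit, was the only member at the nominal criterion, which 3.56% of all probe sets met in the lower direction. It was 9.04 and 8.83 in control and 7.66 and 7.52 in maltodextrin, a difference of -1.34 (SE 0.19, limma adjusted p = 0.229). Tap1, a peptide transporter subunit named after its values were seen, was 10.38 on control 1, 8.29 on control 2, 8.36 on maltodextrin 3 and 8.53 on maltodextrin 4, the pattern of the GTPases.

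Markers of other immune cells also differed between arrays, and their part in the interferon results was not tested. B cell markers had 5 of 10 members below both controls (24.7% of all probe sets) and 0 above (25.6% of all), with list means of 8.58 and 7.98 in control and 6.89 and 8.09 in maltodextrin. T and NK cell markers, cells that make interferon gamma, had 5 of 10 above both controls (25.6% of all) and 1 below (24.7% of all). Their means were 6.48 and 6.18 in control and 6.6 and 6.75 in maltodextrin. Neutrophil markers had 3 of 10 above and 3 below, near the shares of all probe sets.

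**Figure D4:**
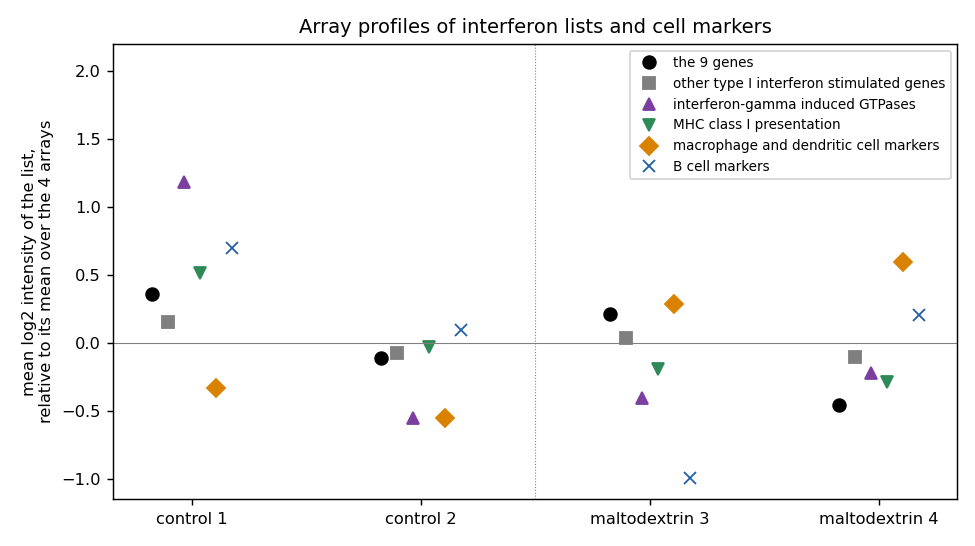
Mean log2 intensity of each gene list on each array (horizontal axis), relative to the list's mean over the 4 arrays (vertical axis). The interferon gamma GTPases stand high on control 1 alone, and the macrophage markers are higher on both maltodextrin arrays. The mean of the 9 type I genes is high on control 1 and maltodextrin 3, though Isg15 and Ifit3 lie below their own means on maltodextrin 3.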

How the data were processed

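Colon RNA of 4 samples was measured on GeneChip Mouse Gene 2.0 ST arrays, and samples were put in groups by their titles. The deposited value table holds log2 intensities of 41345 probe sets. Software was Partek 6.6, per the submitters' processing notes. How background was corrected and arrays normalized is not stated in those notes. The authors' deposited comparison table (33793 rows) lists for each probe set, per the file headers, a ratio with a p-value and its step-up adjustment, and its log2 ratios matched the group differences of the value table within 8.7e-05. A symbol was present for 32202 rows, and 4338 of these match several places. These were fitted with limma 3.58.1 (lmFit, eBayes) under R 4.3.3 as the difference of maltodextrin from control, with two-sided p-values adjusted by Benjamini-Hochberg and and 2.62 prior degrees of freedom. The fitting code was tested on simulated data. Errors are SD over 2 arrays or the SE of the fit, and the number of arrays limits the precision. Background was judged from 1238 receptor probe sets that match 1 place.

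The members and lists were chosen with earlier results of these data known. Named genes are the 9 members, up to 4 genes per list with the largest difference among those whose groups do not overlap, and the 8 nearest profiles (predicted, clone, small RNA, receptor and antigen receptor names left out). Genes named outside this rule for their known role (Ifna1, Ifnl2, Ifnb1, Stat2, Irf9, Uba7, Ube2l6, Herc6, Socs1, Socs3, Igtp, Iigp1, Epcam and Hoxb13) were named after their values were seen. Where a gene has several probe sets the brightest stands for it. Ifih1 and Trim25 stand on 2 interferon lists each. Gene positions and promoters are RefSeq's for GRCm38.p6, and the file's own Ensembl entries name GRCm38. Alternatives were a second quantile normalization, median centring, a minimum mean log2 of 5, all rows, trended and robust eBayes, the methods' t-test (equal variance), probe sets matching 1 place, a fold of at least 2, and each array left out. The authors' chosen list was not used, since some of its cells were altered in the workbook.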

Additional observations from a re-analysis of the deposited data

How the results depend on the processing

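Isg15 kept its direction in every alternative in which it was tested, but at most the second quantile normalization could have reversed it. Median centring moves the differences of all genes by the same amount. It took the Isg15 difference from -1.33 to -1.26, a shift too small to reverse it. The all-rows, eBayes, t-test and 1-place settings leave the Isg15 difference unchanged. With both maltodextrin arrays below both controls, leaving out an array cannot change the sign. Isg15 was dropped by a mean log2 of at least 5, since its own mean lies under that. Its limma adjusted p ranged from 0.0393 without control 1 to 0.962 without maltodextrin 3. A lone array of a group is there assumed to vary like the other group. The number of members at the nominal criterion in the lower direction was 1 with all arrays (Isg15). With a mean log2 of at least 5 it was 0, where 3.16% of the probe sets kept met the criterion. With quantile normalization applied again it was 2 (Isg15 and Ifit3), where 3.38% of all probe sets did. With an array left out, 1 group holds a single array, so only differences are given for these genes. Ifit3 was at -0.79 without control 2, Irf7 at -0.99 without maltodextrin 3 and Usp18 at 1.38 without control 1. The number of members with the maltodextrin arrays below both controls, 2 with all arrays, was 1 with a mean log2 of at least 5 and 1 with probe sets matching 1 place, which removes Ifit3, and 3 with quantile normalization applied again. It ranged from 2 to 7 with an array left out, 5 without control 2 and 7 without maltodextrin 3, where fewer arrays have to separate. The share of all probe sets that separate was counted only in the main setting, at 24.7%. It was not counted under these alternatives or with an array left out. None of these counts is therefore a result about the members. The median difference of the members ranged from -0.55 without maltodextrin 3 to 0.058 without maltodextrin 4. With an array left out, differences ranged from -1.64 to -1.02 for Isg15, -0.79 to -0.36 for Ifit3, -0.99 to -0.07 for Irf7 and 0.06 to 1.38 for Usp18. They changed sign for Oasl2 (-0.92 to 0.06), Rsad2 (-0.59 to 0.018), Ifit2 (-0.55 to 0.33), Oas2 (-0.42 to 0.54) and Ifit1 (-0.45 to 0.94). Oas2 was also -0.12 with quantile normalization applied again. The cause was not tested. Of 97 single-gene values under the alternatives, 83 kept direction and side of the criterion. The minimum mean, all-rows, eBayes, t-test and 1-place settings leave a gene's difference itself unchanged, so its direction could not change there. The count of 83 is therefore not a measure of stability. Over all probe sets the lower count of 1148 was 564 with a mean log2 of at least 5, 354 by the methods' t-test, with an array left out 2509 (control 1), 3903 (control 2), 315 (maltodextrin 3) and 518 (maltodextrin 4). At an adjusted p of 0.05, 905 probe sets passed without control 1, Isg15 among them, and 671 without control 2, with 0 of the members. At a fold of at least 2 the member count was 1, where 1.36% of all probe sets passed. No paired analysis was possible because the labels number the samples as 1 series, 1 to 4, with no number shared between groups.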
